A study of Mus musculus with 16 samples.

Results

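The clustered protocadherin genes encode adhesion proteins of the cell surface. They lie side by side in an alpha, a beta and a gamma cluster. In neurons each cell uses a small set of them, picked by promoter choice, and the set gives the cell a surface identity. The choice depends on DNA methylation of the promoters, on the zinc finger protein CTCF and on cohesin. In the alpha and gamma clusters each variable exon carries its own promoter and is spliced to constant exons that the whole cluster shares, whereas each beta gene is a single exon. The C-type genes at the ends of the alpha and gamma clusters are less subject to random choice than the others.

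All genes whose symbol marks them as members of the clusters were taken, which gave 58 of the 49585 genes counted: 14 in the alpha, 22 in the beta and 22 in the gamma cluster. All lie on the plus strand of mouse chromosome 18 (GRCm38), the alpha cluster at chr18:36930184-37187661, the beta cluster at chr18:37264938-37524479 and the gamma cluster at chr18:37661793-37841873. Of the alpha and gamma genes, a median of 46.4% and 54.7% of the exon bases were not shared with any other gene, against all bases of the median beta gene. A read in the shared constant exons belongs to no single gene, so the alpha and gamma values rest on the unshared bases and may miss reads. Pcdhga10 had 0 unshared bases, and the symbol Pcdha11 was carried by 2 genes.

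The study followed C2C12, a cell line of mouse myoblasts whose cells join into myotubes in low serum, to learn how the energy sensor AMPK and its phosphorylation of the 5-methylcytosine oxidase TET2 bear on muscle differentiation. RNA depleted of ribosomal RNA was sequenced in 16 libraries, 2 in each of 8 groups. The first 4 groups were WT cells and AMPK-KO cells, in which CRISPR-Cas9 had disrupted both catalytic subunit genes Prkaa1 and Prkaa2, at day 0 (d0, confluent myoblasts) and day 8 (d8) of differentiation. The study describes a pair of independent AMPK-KO lines, also for RNA-seq, but the labels do not tie a library to a line, so the spread between 2 AMPK-KO libraries may be that between lines. The other 4 groups were 2 TET2-WT clones and 2 TET2-S97E clones at d0, all of them AMPK-null and all carrying a FLAG-BirA tag and EGFP knocked in at the start of endogenous Tet2. The S97E clones also carried glutamate in place of serine 97, a mimic of the phosphorylated residue. Nothing in the labels says that the 2 libraries of any other group were separate cultures, so p-values measure the spread between libraries, which may be technical there, and over 2 libraries of a clone they are too small. The WT and AMPK-KO libraries held 17883417 to 24663079 counts each, and the TET2 libraries 19801909 to 37790358.

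The edited genes were read first. The count of Prkaa2 was 35 and 33 at d0 in the WT libraries against 4 and 9 in the AMPK-KO ones, and at d8 113 and 216 against 31 and 17. Prkaa1 kept 1522 to 2043 counts in the AMPK-KO libraries against 2290 to 3287 in WT, and a count over the whole gene does not show a small edit. Both Prkaa genes were detected in the 8 TET2 libraries (Prkaa1 at 1515 to 2863 counts, Prkaa2 at 9 to 53), and a count does not show the S97E substitution either. The muscle markers Des, Myod1 and Myf5 were detected in all 16 libraries, with 17070, 151 and 313 as their lowest counts.

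These myoblasts expressed the beta and gamma clusters and left the alpha cluster nearly silent. Of the 58 members, 55 had at least 1 count somewhere, and 12 never exceeded 3 counts in any library, the limit used here for a count that cannot be told from 0. The 14 alpha genes together gave between 0 and 20 counts per library, none of them above 4 counts, and Pcdhac1 and Pcdhac2, the alpha C-types, had 1 and 7 counts over all 16 libraries. In contrast, 11 beta and 7 gamma genes were above that limit in every library. All members together took 0.0148% (WT d0 replicate 2) to 0.048% of the counts of a WT or AMPK-KO library and 0.0251 to 0.0594% of a TET2 library.

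Within the gamma cluster a single C-type gene stood far above the rest. Per kilobase of unshared exon, Pcdhgc3 (ENSMUSG00000102918.1, chr18:37806364-37841873) was the highest gamma gene in all 8 groups, at 51.0 (AMPK-KO d0) to 129.2 CPM per kb as a group mean (CPM are counts scaled to a common library size), and the next gamma gene was 9.75 to 83.8 times lower. It took 72.6 to 94.2% of the gamma counts of a library. Its exons partly overlap a gene outside the family, BC037039, and those bases were left out of its length. Whether reads on them entered its counts is not known, since how reads over more than 1 gene were counted is not given. The other C-types were low: Pcdhgc4 lay between 0.141 and 2.73 CPM and Pcdhgc5 between 0.561 and 8.53 CPM over the 16 libraries.

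In the beta cluster the level was spread over the 3′ end of the array. Pcdhb17 (ENSMUSG00000046387.5, chr18:37484795-37489454) had the highest group mean in all 8 groups, from 2.28 CPM per kb in WT d0 to 10.8 in TET2-S97E clone 1, but the second gene (Pcdhb16, Pcdhb20 or Pcdhb22) was only 1.04 to 1.55 times lower. The first and second genes of a group therefore often differed by less than the spread of their libraries. This order holds per kilobase of unshared exon. In CPM alone the mean of Pcdhb22 exceeded that of Pcdhb17 in AMPK-KO d0 (11.7 against 11.2) and AMPK-KO d8 (34.6 against 28.3). The same held in TET2-WT (21.1 against 16.8), while Pcdhb17 was the higher one in WT d0, WT d8 and TET2-S97E. The effective number of beta genes, 1 over the sum of the squared shares of the level per unshared base, was 6.53 to 8.96. Summed CPM of Pcdhb1 to Pcdhb13 lay between 1.30 and 19.9, and that of Pcdhb14 to Pcdhb22 between 32.9 and 247.6. This split was made after the values were seen.

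**Figure D1:**
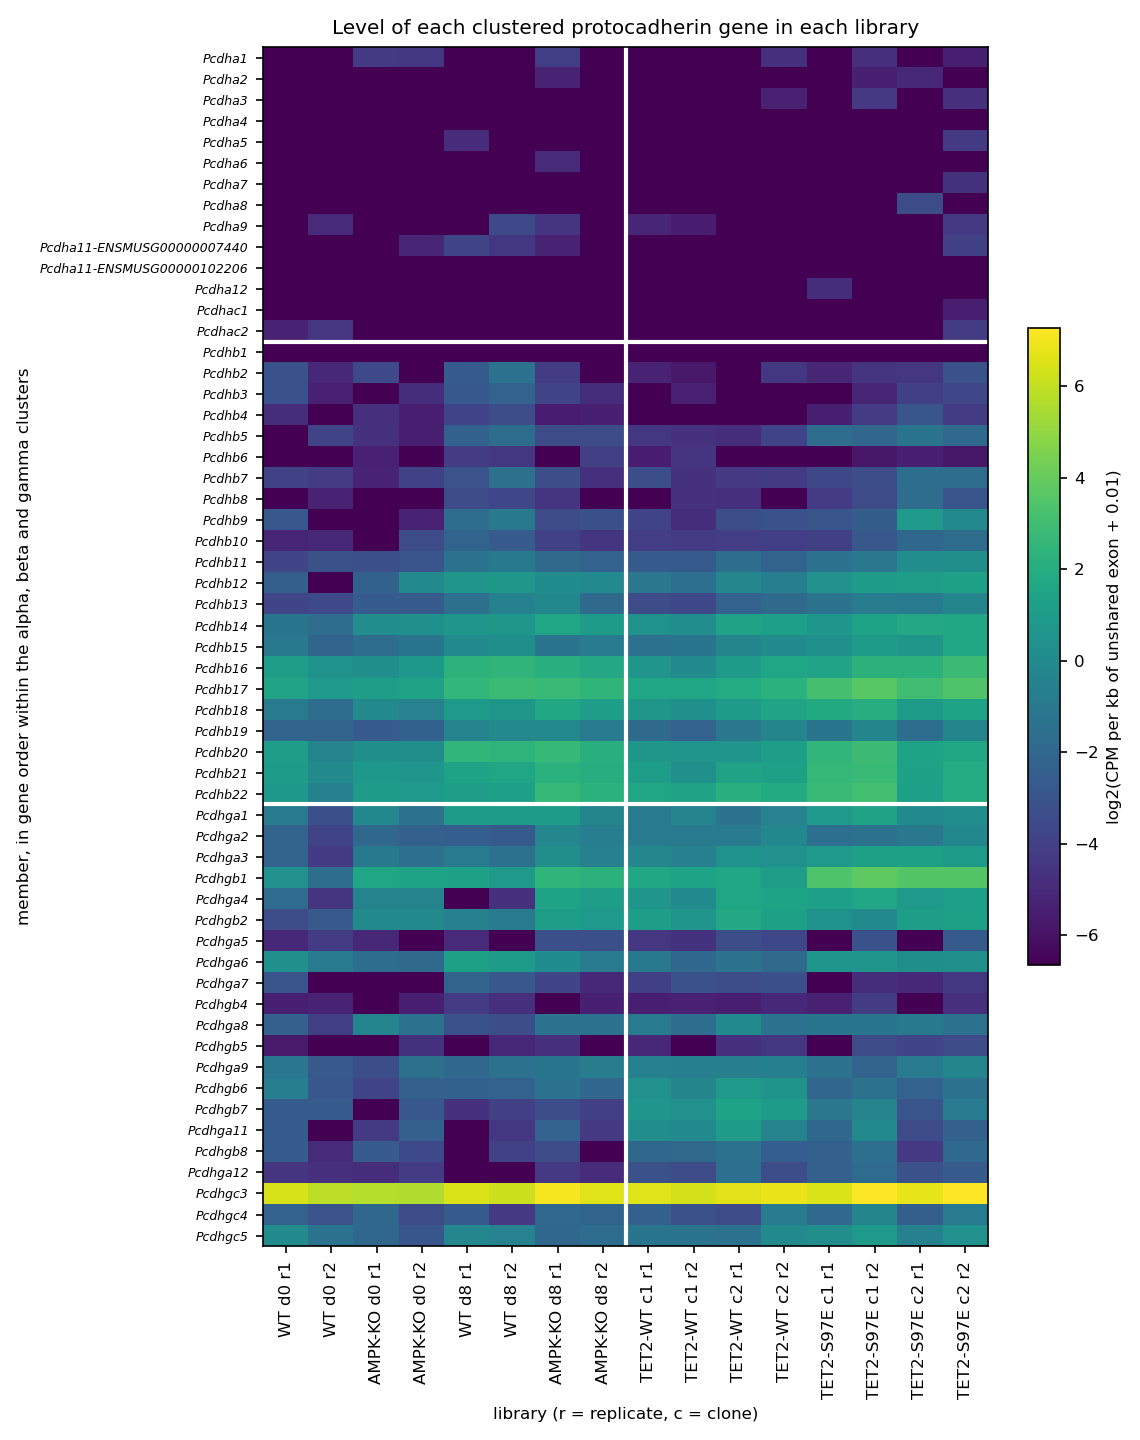
Level of each member (rows, in gene order; Pcdhga10 is left out for want of unshared bases) in each of the 16 libraries (columns), as log2 of CPM per kb of unshared exon plus 0.01; white lines part the clusters and the 2 count tables. The alpha rows are dark throughout, Pcdhgc3 is the brightest row in every library, and the brighter beta rows are those at the 3′ end.

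Beta genes were higher at d8 than at d0 of differentiation in WT cells. Summed beta CPM was 62.7 and 34.2 in the 2 WT d0 libraries and 138.7 and 153.7 in WT d8, so both d8 libraries lay above both d0 libraries, and the mean was 3.02 times higher. Of the 58 members, 28 passed the filter on low counts in this table. In all, 9 were called higher at d8 and 0 lower by edgeR's quasi-likelihood test at an adjusted p under 0.05, beside 5.78% of all 14329 genes tested called higher and 6.58% lower. DESeq2 called 11 higher and 0 lower, beside 9.75% and 9.47% of all genes, and at an unadjusted p under 0.05 edgeR had 17 higher and 1 lower. In bulk RNA, fewer expressing cells and less RNA per cell cannot be told apart.

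Of the 9, 8 were beta genes, and all 15 beta genes that passed the filter had a positive log2 fold change. Genes pass the filter through the group where they are high, so these signs describe those 15 only. Pcdhb14 had 3.62 and 2.66 CPM in WT d0 and 13.5 and 14.3 in WT d8. Its groups did not overlap and its log2 fold change was 2.14 (SE 0.288; edgeR's quasi-likelihood test, adjusted p = 0.0143). Pcdhb17 had 12.97 and 8.30 CPM at d0 and 28.0 and 33.3 at d8, a log2 fold change of 1.53 (SE 0.273; edgeR's quasi-likelihood test, adjusted p = 0.0184). Pcdhb20 went from 7.72 and 2.66 CPM to 19.9 and 18.7, a log2 fold change of 1.89 (SE 0.47; edgeR's quasi-likelihood test, adjusted p = 0.0436). The log2 fold change of Pcdhb20 was 2.84 without WT d0 replicate 1 and 1.34 without WT d0 replicate 2. For all of these genes every d8 library lay above every d0 library, with the lowest d0 value always in replicate 2.

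Pcdhb11, Pcdhb16, Pcdhb18 and Pcdhb19 rose by 1.57 to 2.39 on the log2 scale, with adjusted p from 0.0217 to 0.0273 in edgeR's quasi-likelihood test. Pcdhb13, which the naming rule did not reach and which is named after its values were seen, rose by 2.87 (SE 0.731; edgeR's quasi-likelihood test, adjusted p = 0.0467). The single gamma gene called was Pcdhgb2, at 0.241 and 0.380 CPM in WT d0 and 1.82 and 1.46 in WT d8, a log2 fold change of 2.38 (SE 0.427; edgeR's quasi-likelihood test, adjusted p = 0.0184). Pcdhgc3 was not called: its WT libraries had 157.7 and 109.7 CPM at d0 and 165.3 and 136.6 at d8, and the groups overlapped. Over the 28 members tested the median log2 fold change was 1.55, beside 0.0132 over all genes. Members enter the test through the group where they are high, so this median describes those 28 only.

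Leaving out a library leaves its group with a single one, which is then assumed to vary like the other groups. Without WT d0 replicate 2, without WT d8 replicate 1 or without WT d8 replicate 2 none of the 9 was called by edgeR, although all kept their direction and 12, 14 and 11 members were higher at an unadjusted p under 0.05. Over all genes those fits called 0 of 15155, 2 of 15064 and 0 of 14959. The median log2 fold change of the 9 was 1.92, 2.09 and 2.03 in these fits, against 2.01 with all libraries. With the replicate number as a block, Pcdhb13 was not called (edgeR's quasi-likelihood test, adjusted p = 0.0528) and Pcdhga1 was (adjusted p = 0.0261, against 0.0818 without the block). Pcdhga1 is named after its values were seen.

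In AMPK-KO cells, beta genes and Pcdhgc3 were higher at d8 than at d0. Summed beta CPM was 58.7 and 63.6 at d0 and 193.7 and 143.6 at d8, without overlap and 2.76 times higher in the mean. In all, 6 members were called higher and 0 lower by edgeR's quasi-likelihood test, beside 4.81% of all genes higher and 4.95% lower, and 5 of the 6 were beta genes (DESeq2 called 9 and 0, beside 9.37% and 8.39% of all genes; unadjusted, 15 and 0). Pcdhb17 rose from 10.3 and 12.2 CPM to 31.3 and 25.4, a log2 fold change of 1.33 (SE 0.272; edgeR's quasi-likelihood test, adjusted p = 0.0318). Pcdhb20 rose from 4.34 and 4.11 to 22.6 and 15.6 CPM, a log2 fold change of 2.18 (SE 0.476; edgeR's quasi-likelihood test, adjusted p = 0.037).

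Pcdhb16, Pcdhb18 and Pcdhb19 were called as well, with log2 fold changes of 1.42, 1.67 and 2.10. Pcdhgc3 had 94.8 and 90.8 CPM in AMPK-KO d0 and 243.8 and 172.9 in AMPK-KO d8. Every d8 library was above every d0 library, and the log2 fold change was 1.17 (SE 0.245; edgeR's quasi-likelihood test, adjusted p = 0.0336). Pcdhb22, the last beta gene, went from 12.04 and 11.4 to 39.6 and 29.6 CPM without overlap and was not called (log2 fold change 1.56, SE 0.403; edgeR's quasi-likelihood test, adjusted p = 0.0548). With the replicate number as a block it was called (adjusted p = 0.0397), as was Pcdhb21, named after its values were seen (adjusted p = 0.043, against 0.051 without the block). The count fell from 6 to 0 without AMPK-KO d0 replicate 1 or 2, AMPK-KO d8 replicate 1, or WT d8 replicate 1 or 2 (9, 10, 9, 13 and 13 members higher at an unadjusted p under 0.05), and to 2 without AMPK-KO d8 replicate 2. Of all genes, 0, 0, 515, 208 and 182 were called higher in the first 5 of these fits, and 289 in the last. The median log2 fold change of the 6 was 1.28 without AMPK-KO d8 replicate 1 and 1.55 to 1.75 in the other 5, against 1.54 with all libraries.

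Whether the d8 change differed between genotypes was tested as an interaction. edgeR's quasi-likelihood test called 0 members in either direction, DESeq2 also 0, and the background was 0.0% of all genes each way in edgeR and 0.188% and 0.23% in DESeq2. At an unadjusted p under 0.05, 2 members were on each side: Pcdhga4 and Pcdhgc3, whose change was larger in AMPK-KO, and Pcdhb14 and Pcdhgb2, whose change was larger in WT. Pcdhga4 had the smallest p of the 4 (unadjusted 0.0107, adjusted p = 0.892 in edgeR's quasi-likelihood test). Its counts went from 9 and 1 to 0 and 1 in WT and from 22 and 25 to 104 and 73 in AMPK-KO, so the WT d8 level was at the limit of 3 counts. Without a filter on low counts it was called (edgeR's quasi-likelihood test, adjusted p = 0.00972), among 268 of 25084 genes called in that direction. For Pcdhgc3 the d8 change was larger in AMPK-KO by 0.99 on the log2 scale (SE 0.342; edgeR's quasi-likelihood test, adjusted p = 0.911).

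Other genes moved at d8 as well. The myoblast markers summed to 3396 and 4616 CPM in WT d0 and 7502 and 8529 in WT d8, and to 2529 and 3166 in AMPK-KO d0 and 4263 and 8517 in AMPK-KO d8. Des had the most counts of the 10 except in AMPK-KO d8, where Itga7 had 37421 and 61450 against 31015 and 60463 of Des. Of them, 2 were called higher in WT (Myog and Ncam1) and 3 in AMPK-KO (Myog, Myod1 and Itga7). The fibroblast markers summed to 931.3 and 514.0 CPM in WT d0 and 1757 and 3382 in WT d8. Col1a1 had the most counts of them in both WT d0 libraries and in WT d8 replicate 2, and Dcn in WT d8 replicate 1. Of the 5 tested, 2 were called higher (Dcn and Lum). In AMPK-KO, Dcn was called. Of the neuronal markers Stmn2 was called lower at d8 in WT and Tubb3 in AMPK-KO. The part of these shifts in the protocadherin change was not tested.

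Several DNA methylation, silencing and cohesin genes were lower at d8 than at d0. Of 14 DNA methylation and silencing genes, 5 were called lower in WT and 3 in AMPK-KO (unadjusted, 5 lower in WT, and 1 higher and 5 lower in AMPK-KO). Dnmt1, the maintenance methyltransferase, fell by 1.70 on the log2 scale in WT and by 1.40 in AMPK-KO. Uhrf1, its recruiting partner, fell by 3.45 and by 2.66, and the chromatin remodeller Hells fell by 2.98 and by 2.30. Of 11 cohesin, CTCF and loading factor genes, 3 were lower in WT d8: Rad21 and Smc3, both ring subunits of cohesin, by 0.94 and 0.78, and Stag1 by 0.69. In AMPK-KO edgeR called 0 of them (5 lower at an unadjusted p under 0.05, and 1 lower by DESeq2). Of the 24 genes tested that lie between or within 500 kb of the clusters, edgeR and DESeq2 called 0 at d8 in either genotype (unadjusted, 3 lower in WT, and 1 higher and 3 lower in AMPK-KO). The part of the silencing and cohesin genes in the protocadherin change was not tested.

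**Figure D2:**
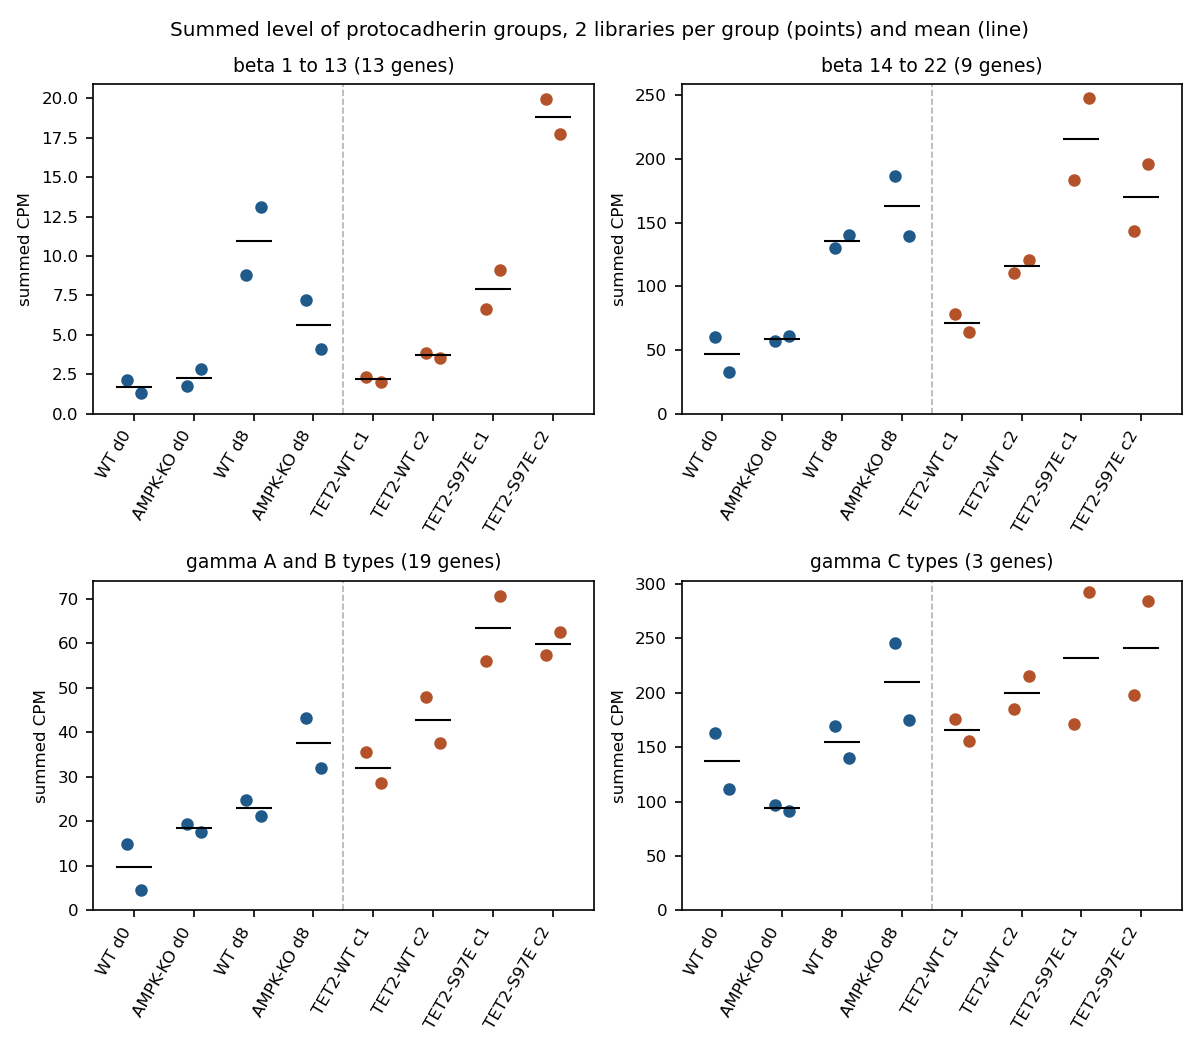
Summed CPM (vertical axis, from 0) of 4 groups of members in the 8 groups of libraries; points are the 2 libraries of a group, lines their mean, and the dashed line parts the 2 count tables, whose levels were scaled separately. Both beta panels are higher at d8 than at d0 and higher in TET2-S97E than in TET2-WT, without overlap.

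Between AMPK-KO and WT, 2 of the 28 members tested were called on each day. At d0, 2 were called higher and 0 lower in AMPK-KO by edgeR's quasi-likelihood test (unadjusted 7 and 2), beside 0.698% of all genes higher and 2.83% lower. DESeq2 called 3 and 0, beside 2.59% and 7.03%. Pcdhgb2 had 2.62 and 2.81 CPM in AMPK-KO d0 against 0.241 and 0.380 in WT d0, 8.64-fold higher (log2 fold change 3.11, SE 0.427; edgeR's quasi-likelihood test, adjusted p = 0.0148). Pcdhb14 had 9.84 and 11.1 CPM against 3.62 and 2.66, 3.33-fold higher (log2 fold change 1.74, SE 0.285; edgeR's quasi-likelihood test, adjusted p = 0.0245). For both genes the AMPK-KO libraries lay above the WT libraries. With the libraries of d0 alone neither was called (smallest adjusted p of a member 0.0535 in edgeR's quasi-likelihood test; 50 of 13169 genes called higher). Neither was called without AMPK-KO d0 replicate 1 or 2 or without WT d0 replicate 1, where Pcdhgb1 was called instead (4, 7 and 55 of all genes called higher, against 100), and only Pcdhgb2 was without WT d0 replicate 2 or without either WT d8 library. The median log2 fold change of the 2 genes was at least 2.33 in these 6 fits, against 2.42 with all libraries.

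At d8, 2 members were again higher and 0 lower (unadjusted 6 and 3), beside 1.36% of all genes higher and 3.98% lower. DESeq2 called 3 and 0, beside 3.87% and 7.68%. Pcdhga4 gave 0 and 1 counts in the WT d8 libraries against 104 and 73 for AMPK-KO d8 (4.24 and 3.55 CPM). Taking WT at the limit of 3 counts per library, it was at least 25.5-fold higher in AMPK-KO (edgeR's quasi-likelihood test, adjusted p = 0.0166). At d0 its counts were 9 and 1 for WT against 22 and 25 for AMPK-KO, again without overlap, and it was not called (edgeR's quasi-likelihood test, adjusted p = 0.179).

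Pcdhgb2 had 6.24 and 4.91 CPM in AMPK-KO d8 against 1.82 and 1.46 in WT d8, 3.40-fold higher (log2 fold change 1.77, SE 0.372; edgeR's quasi-likelihood test, adjusted p = 0.042). With the libraries of d8 alone it was not called, while Pcdhga4 was and Pcdhb22 joined it. The 2 calls became 0 without either WT d8 library or AMPK-KO d8 replicate 1 (9, 7 and 53 of all genes called higher, against 195, with Pcdhgb2 at a log2 fold change of 1.95, 1.63 and 1.60), Pcdhga4 alone without AMPK-KO d8 replicate 2 or either AMPK-KO d0 library, and 4 without WT d0 replicate 1. Over the cluster, summed gamma CPM was lower in AMPK-KO at d0 (116.2 and 109.1 against 178.1 and 116.5) and higher at d8 (288.9 and 206.9 against 194.6 and 161.2). Neither pair overlapped, though at d0 the nearest libraries, 116.2 and 116.5, all but touched, and Pcdhgc3, which made up most of these sums, was not called on either day. Pcdhgc5 and Pcdhga6 were lower in AMPK-KO on both days without overlap. Their log2 fold changes were -1.962 and -1.572 at d0, and -1.565 and -1.431 at d8. Neither was called (edgeR's quasi-likelihood test, adjusted p from 0.129 to 0.195). At an unadjusted p under 0.05, 7 members were higher and 2 lower at d0, and 6 and 3 at d8.

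WT and AMPK-KO also differed in markers of other cell types. The neuronal markers summed to 373.8 and 959.9 CPM in WT d0 and 178.1 and 140.6 in WT d8. The sums were 12.98 and 21.1 in AMPK-KO d0 and 2.16 and 10.2 in AMPK-KO d8. In WT, Nefl had the most counts of them in d0 replicate 2 and Tubb3 in the other libraries. Of the 5 tested, 4 (Map2, Tubb3, Stmn2 and Gap43) were called lower in AMPK-KO on both days. The defining neuronal genes Rbfox3 and Snap25 had 0 counts in all 8 libraries of that table, and Syt1 had at most 2. The fibroblast marker sums were lower too, at 127.4 and 169.2 CPM in AMPK-KO d0 and 332.3 and 510.4 in AMPK-KO d8, with 1 of 5 called at d0 (Ly6a) and 2 at d8 (Col1a1 and Lum). Of the myoblast markers, Myog and Myod1 were lower at d0. Glial markers summed to 1.05 to 6.23 CPM and endothelial and blood markers to 2.70 to 130.1 CPM over the 16 libraries. Of these 2 lists edgeR called 0 genes between WT and AMPK-KO. Unadjusted, 1 glial marker was lower at d0, and 1 endothelial or blood marker lay on each side at d8, of which DESeq2 called the higher one. Their part in the protocadherin differences was not tested.

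Among related genes, Pcdh18, a protocadherin outside the clusters, was called lower in AMPK-KO on both days. It had 240 and 112 counts in WT d0 and 128 and 162 in WT d8, against 1 and 1 in AMPK-KO d0 and 0 and 1 in AMPK-KO d8, all under the limit of 3. Of the list, 5 of the 12 nonclustered genes passed the filter and the others were not called, save Pcdh7, which rose by 1.31 at d8 over d0 in AMPK-KO. Of 17 partners and signalling genes of the protocadherins, the Src family kinase Fyn fell by 1.15 and by 1.32 in AMPK-KO at the 2 times, and Cyfip2, of the WAVE actin regulatory complex, by 3.76 at d8. At d8 against d0, Cyfip2 rose by 2.64 and Cyfip1 fell by 0.60 in WT, and Nlgn2 rose by 0.99 in AMPK-KO. Of the neighbours of the clusters, Diaph1 was lower in AMPK-KO at d0, with a log2 fold change of -0.68 (edgeR's quasi-likelihood test, adjusted p = 0.0497). Between WT and AMPK-KO edgeR called 0 cohesin or silencing genes on either day. At an unadjusted p under 0.05, 1 of each list was lower at d0, and 1 cohesin gene and 4 silencing genes were higher at d8, of which DESeq2 called 2 silencing genes.

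The TET2-S97E clones had more beta RNA and another mix of gamma RNA than the TET2-WT clones. Summed beta CPM was 80.8 and 66.1 in TET2-WT clone 1 and 114.4 and 124.0 in clone 2, against 190.4 and 256.7 in TET2-S97E clone 1 and 163.1 and 214.0 in clone 2, with no overlap between the genotypes and a mean 2.14 times higher. Of the 58 members, 30 passed the filter. In all, 11 were called higher and 2 lower by edgeR's quasi-likelihood test, beside 3.71% of all 13433 genes higher and 3.28% lower. DESeq2 called 14 and 2, beside 7.3% and 6.28%. Of the 11, 8 were beta genes, and all 13 beta genes tested had a positive log2 fold change. Genes pass the filter through the group where they are high, so these signs describe those 13 only. With 2 clones per genotype, what followed the mutation and what the founding cells carried cannot be told apart.

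Pcdhgb1 (ENSMUSG00000103037.1, chr18:37680233-37841870), a gamma B gene, had the smallest adjusted p. It had 8.36, 6.94, 7.69 and 5.70 CPM in the TET2-WT libraries (clone 1, then clone 2) and 28.7, 37.3, 30.3 and 30.5 in the TET2-S97E libraries. The 4 S97E values lay close together and far above all TET2-WT values, 4.43-fold higher (log2 fold change 2.15, SE 0.166; edgeR's quasi-likelihood test, adjusted p = 0.000965). Pcdhga6, in the same stretch of the cluster, had 1.27, 0.633, 1.007 and 0.713 CPM in TET2-WT and 4.19, 3.91, 3.13 and 3.30 in TET2-S97E, 4.03-fold higher without overlap (log2 fold change 2.01, SE 0.307; edgeR's quasi-likelihood test, adjusted p = 0.00857).

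The gamma genes called lower lie farther 3′. Pcdhgb6 had 3.39, 2.06, 4.58 and 3.71 CPM in TET2-WT and 0.605, 0.944, 0.505 and 0.980 in TET2-S97E. Every S97E library lay below every TET2-WT library, 4.45-fold lower (log2 fold change -2.15, SE 0.36; edgeR's quasi-likelihood test, adjusted p = 0.0115). Pcdhgb7, outside the naming rule and named after its values were seen, also fell, by 2.00 on the log2 scale, and Pcdhga1, likewise outside the rule, rose by 1.44. Pcdhga4 and Pcdhgb2, which lie between Pcdhgb1 and Pcdhga6, were not called.

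Among beta genes, Pcdhb17 had 14.2, 13.6, 17.5 and 22.1 CPM in TET2-WT and 41.7, 59.1, 37.5 and 51.4 in TET2-S97E, 2.82-fold higher without overlap (log2 fold change 1.49, SE 0.204; edgeR's quasi-likelihood test, adjusted p = 0.00705). Pcdhb5, a gene near the 5′ end of the array, had 0.136, 0.106, 0.0916 and 0.214 CPM in TET2-WT and 1.06, 0.814, 1.41 and 0.915 in TET2-S97E, 7.41-fold higher (log2 fold change 2.89, SE 0.417; edgeR's quasi-likelihood test, adjusted p = 0.0077). Its TET2-WT values rested on 2 to 6 counts per library and its S97E values on 21 to 28. Pcdhb11, Pcdhb12 and Pcdhb20 rose by 1.92, 1.86 and 1.51 on the log2 scale. Pcdhb16 was called too (log2 fold change 1.41, SE 0.354; edgeR's quasi-likelihood test, adjusted p = 0.0437), but one of its S97E libraries, at 14.7 CPM, lay below the highest TET2-WT library, at 15.1. The remaining beta genes called, Pcdhb13 and Pcdhb15, lay outside the naming rule, are named after their values were seen, and rose by 1.86 and 1.64.

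Pcdhgc3 differed little: 173.3, 153.2, 182.8 and 208.6 CPM in TET2-WT and 165.2, 281.5, 194.1 and 276.5 in TET2-S97E. The groups overlapped, and the second library of each S97E clone was the higher one (log2 fold change 0.35, SE 0.193; edgeR's quasi-likelihood test, adjusted p = 0.308). Over the 30 members tested the median log2 fold change was 0.82, beside 0.011 over all genes. As above, it describes those 30 only.

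The number of calls depended on how clones entered the test. With the counts of each clone summed, so that a genotype had 2 values, edgeR called 0 members (0 of 15126 genes in all; 16 members higher and 2 lower at an unadjusted p under 0.05, smallest adjusted p 0.257), and limma-voom, with the clone entered as a random effect, called 3, Pcdhb17, Pcdhga6 and Pcdhgb1. All 13 kept their direction, and their median log2 fold change was 1.67 with summed counts and 1.77 with limma-voom, against 1.64. Leaving out TET2-WT clone 1 left 2 higher and 1 lower, and leaving out single libraries left 4 higher (TET2-WT clone 1 replicate 1 or 2), 5 (TET2-WT clone 2 replicate 1), or 7 (TET2-S97E clone 1 replicate 2, clone 2 replicate 1 or clone 2 replicate 2). Of all genes, 178, 218, 163, 447, 365 and 473 were called higher in these 6 fits and 100 without TET2-WT clone 1, against 498. The 7 without TET2-S97E clone 2 replicate 1 included Pcdhb21, which was not called with all libraries. The 2 lower calls became 1 when any 1 of the 4 TET2-WT libraries was left out, without TET2-S97E clone 1 replicate 1 or without TET2-S97E clone 2 replicate 2, and 0 without TET2-WT clone 2. Pcdhgb1, Pcdhb17, Pcdhb5, Pcdhga6 and Pcdhgb6 were called in each fit that left out a single library. With the replicate number as a block 8 of the 13 calls were kept, and Pcdhb11, Pcdhb13, Pcdhb15, Pcdhb16 and Pcdhgb7 were not called.

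**Figure D3:**
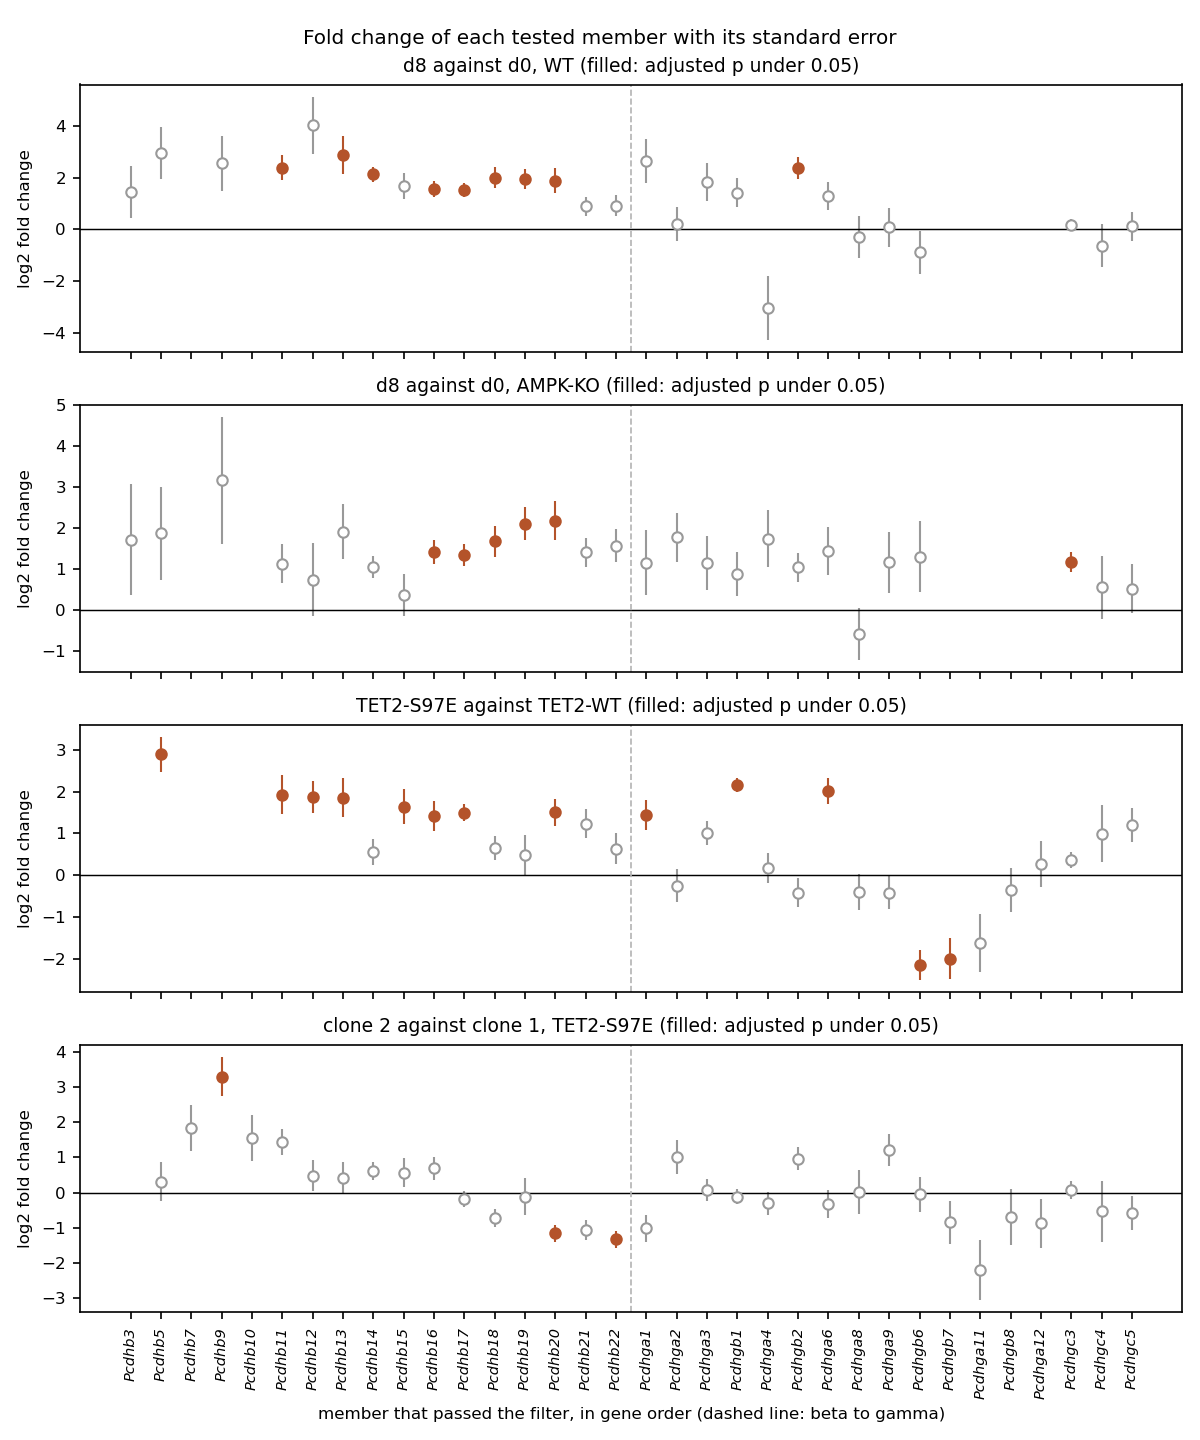
Log2 fold change (points) with its standard error (bars) of each member that passed the filter, in gene order, in 4 comparisons; filled points had an adjusted p under 0.05 in edgeR's quasi-likelihood test. In the upper 3 panels all beta genes that passed the filter are above 0. In TET2-S97E the gamma genes Pcdhga1, Pcdhgb1 and Pcdhga6 were called higher and Pcdhgb6 and Pcdhgb7 lower. Gamma genes not called lie on both sides of 0 among and beyond them.

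Markers of muscle differed between these genotypes too. Myoblast markers summed to 2264 to 2651 CPM in the 4 TET2-WT libraries, to 7265 and 5302 in TET2-S97E clone 1 and to 2643 and 2080 in TET2-S97E clone 2, and Myog and Myod1 were called higher in S97E, Myog by 4.61 on the log2 scale. Des and Itga7 were the largest parts of these sums, with Des ahead except in TET2-WT clone 2 replicate 1 (19007 against 20854 counts). Myog had 2794 and 5538 counts in S97E clone 1 and 1122 and 1289 in S97E clone 2, against 9 to 390 in the TET2-WT libraries. Of the silencing genes Uhrf1 rose by 1.43 (edgeR's quasi-likelihood test, adjusted p = 0.0202) and edgeR did not call the other 13. At an unadjusted p under 0.05, 1 silencing gene was higher and 3 were lower, and DESeq2 called 1 higher and 3 lower. Tet2 itself had 758, 854, 1275 and 1584 counts in TET2-WT and 256, 675, 156 and 677 in TET2-S97E. In the lists of cohesin genes, partners, nonclustered protocadherins, neighbours of the clusters and neuronal, glial, fibroblast, endothelial and blood markers edgeR called 0 genes. At an unadjusted p under 0.05, 1 cohesin gene was higher, 2 partners were lower, 1 nonclustered gene lay on each side, 1 fibroblast marker was higher and 1 endothelial or blood marker lower, and DESeq2 called these last 2 lists' genes, 1 each. The part of the muscle markers in the result was not tested.

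The mix of gamma A and B genes set the genotypes apart more than the mix of beta genes did. Pcdhgb1 took 51.3, 52.8, 52.9 and 48.8% of the gamma A and B counts in the TET2-S97E libraries (95% Wilson intervals from 46.6 to 55.8%), against 23.6 and 24.3% in TET2-WT clone 1 (20.8 to 27.0%) and 16.1 and 15.2% in clone 2 (13.1 to 18.4%). These intervals, like the limit of 3 counts, cover counting error only. The effective number of gamma A and B genes, computed on levels per unshared base, was 3.30 to 3.87 in TET2-S97E and 8.99 to 9.32 in TET2-WT. In AMPK-KO it was 4.81 to 5.95, and in WT it was 7.53 in d0 replicate 1 and 4.94 and 5.17 at d8. WT d0 replicate 2, with 85 gamma A and B counts, was too shallow for a mix. The set of gamma A and B types was formed after the values were seen.

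Clones and lines did not each use a single gene. In every library deep enough, several gamma A and B genes shared the level: in TET2-WT clone 2, Pcdhgb2, Pcdhga4 and Pcdhgb1 each held 13.5 to 16.9% of it, and in the 2 WT d8 libraries Pcdhgb1, Pcdhga6 and Pcdhga1 each held 22.4 to 27.0%. Each library pools many cells, so how many genes a single cell used was not measured. The libraries of AMPK-KO put Pcdhgb1 first, with 31.8 to 38.8% of the level per unshared base.

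The likeness of 2 libraries is the percent of the mix they have in common. For gamma A and B genes in the TET2 table it was 81.9 to 90.8% (median 86.1%, 8 pairs) between clones of 1 genotype and 51.1 to 68.6% (median 61.1%, 16 pairs) between genotypes, against 85.7 to 93.1% within the groups of both tables. In the other table it was 69.5 to 88.8% between days of 1 genotype and 55.7 to 66.3% between WT and AMPK-KO on the same day. These ranges do not overlap in either table. For beta genes they did. In the TET2 table they were 70.9 to 90.7% between clones of 1 genotype and 73.3 to 89.4% between genotypes. In the other table the beta ranges overlapped only at the edge. They were 82.1 to 91.7% between days of 1 genotype and 79.4 to 82.5% between WT and AMPK-KO on the same day. These are descriptions without a test, since pairs share libraries.

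**Figure D4:**
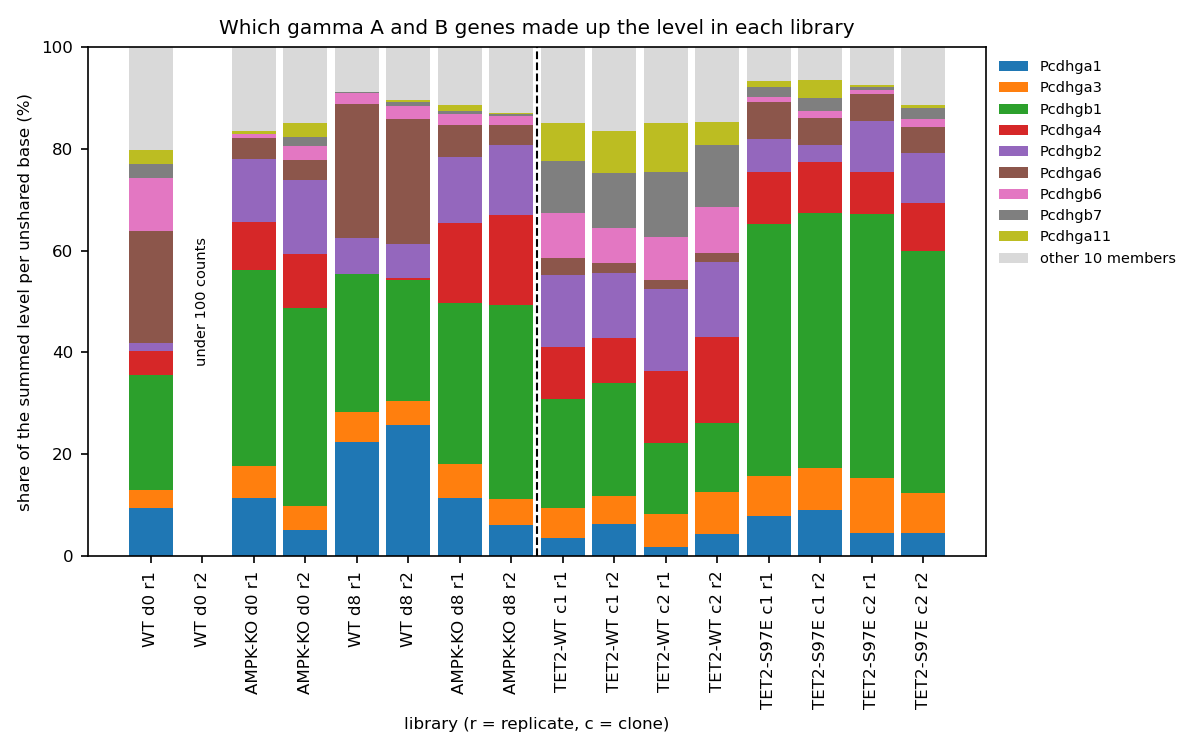
Share (vertical axis, percent of the summed level per unshared base) of 9 gamma A and B genes and of the other 10 together in each library; WT d0 replicate 2, with under 100 counts, is not drawn. Pcdhgb1 fills about the same part of the bar in all 4 TET2-S97E libraries (47.5 to 51.8%) and a smaller part in TET2-WT (13.5 to 22.2%).

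Between the 2 TET2-S97E clones 3 beta genes were called. In all, 1 member was called higher and 2 lower in clone 2 than in clone 1 by edgeR's quasi-likelihood test, of the 33 that passed the filter over the 4 clones (unadjusted 7 and 6), beside 3.35% of all 14459 genes higher and 2.82% lower. DESeq2 called 2 and 3, beside 4.5% and 5.07%. These counts are near the shares of all genes, so they are given for the named genes and not as a result about the clusters. Pcdhb9 (ENSMUSG00000051242.1, chr18:37400855-37403909) had 0.353 and 0.488 CPM in clone 1 and 5.45 and 3.01 in clone 2, 9.82-fold higher (log2 fold change 3.30, SE 0.556; edgeR's quasi-likelihood test, adjusted p = 0.00969). In all other groups its libraries lay between 0 and 1.46 CPM, so clone 2 stood above all of them.

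Pcdhb22 and Pcdhb20, near the 3′ end of the array, went the other way. Pcdhb22 had 42.6 and 51.2 CPM in clone 1 and 14.2 and 22.9 in clone 2, 2.51-fold lower (log2 fold change -1.33, SE 0.246; edgeR's quasi-likelihood test, adjusted p = 0.0143). Pcdhb20 had 20.6 and 26.6 CPM in clone 1 and 9.44 and 11.7 in clone 2, 2.23-fold lower (log2 fold change -1.16, SE 0.244; edgeR's quasi-likelihood test, adjusted p = 0.0259). Neither pair of groups overlapped. Summed over Pcdhb1 to Pcdhb13 the level was 6.66 and 9.11 CPM in clone 1 and 19.9 and 17.7 in clone 2, 2.39 times higher, while over Pcdhb14 to Pcdhb22 it was 183.7 and 247.6 against 143.2 and 196.3, with overlap.

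Pcdhb9 lost its call without TET2-S97E clone 1 replicate 1 or clone 2 replicate 1, at log2 fold changes of 3.115 and 2.767. Of the 2 lower calls, Pcdhb20 was lost without either TET2-WT clone 1 library or TET2-S97E clone 2 replicate 1, which left Pcdhb22 alone. The log2 fold change of Pcdhb20 was -1.156, -1.154 and -1.055 there. Without TET2-S97E clone 2 replicate 2, Pcdhb20, at -1.316, gave way to Pcdhb21. Both lower calls were lost without TET2-S97E clone 1 replicate 2, with Pcdhb20 at -0.959 and Pcdhb22 at -1.19. Pcdhb11 joined Pcdhb9 without either TET2-WT clone 2 library. Of the myoblast markers 6 were lower in S97E clone 2, led by Myod1 (fell by 2.36 on the log2 scale), and all 3 neuronal markers tested were higher, with sums of 59.6 and 43.7 CPM against 2.22 and 2.86 and Stmn2 higher by 7.24; Rbfox3, Snap25 and Syt1 stayed at 0 to 7 counts in the 4 S97E libraries. Of the fibroblast markers Dcn and Lum were higher, of the endothelial and blood markers Cdh5 was lower, and the partners Marcks and Nlgn1 were higher and Ptk2b lower. Near the clusters Hbegf was higher and Pcdh1 lower. Their part in the differences between the clones was not tested.

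In TET2-WT edgeR called no member between the clones, and whether the clones of the 2 genotypes differed unequally was not tested. edgeR's quasi-likelihood test gave 0 calls in either direction of the 33 members tested, beside 0.463% of all genes higher in clone 2 and 0.394% lower, with 9 higher and 0 lower at an unadjusted p under 0.05. DESeq2 called 1 higher, beside 3.51% of all genes higher and 2.68% lower, a share near the background. That gene was Pcdhb14, at 11.6 and 9.68 CPM in clone 1 and 22.7 and 20.2 in clone 2, and edgeR called it as well without either TET2-S97E clone 1 library. Summed beta CPM was 1.62 times higher in clone 2 and did not overlap. The marker lists were not level either: Myod1, Col1a1 and Lum were higher in clone 2 and Ly6a and Hba-a1 lower, and their part was not tested.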

How the data were processed

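Whole-gene read counts were deposited by the authors in 2 tables of 8 libraries each. Per the submitters' processing notes and the study's methods the authors used bcl2fastq 2.17, Trim Galore 0.4.5, STAR 2.5.3a and featureCounts 1.5.3 on mm10 with GENCODE; the strand and multi-overlap settings are not given in the sources used here. The members and lists were chosen with earlier results of these data known. Names and exon positions came from GENCODE M21, which held 49326 of the 49585 genes.

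Each table was scaled and tested on its own with edgeR 4.0.16 (TMM factors, filterByExpr, quasi-likelihood test, R 4.3.3) over all genes that passed the filter, 14329 for WT and AMPK-KO, and 13433 (genotypes) or 14459 (clones) for the TET2 libraries, with Benjamini-Hochberg adjustment and a threshold of 0.05. A test of 2 against 2 libraries by permutation cannot go below p = 0.33, so sums over members were compared by their ranges. CPM are counts scaled to a common library size with the TMM factors. Unshared bases are exon bases of no other gene. Named were the C-types, in each comparison up to 8 called members with at least 10 counts in every library of the higher group, the highest member of each cluster per group, and up to 3 called genes of each other list.

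Deviations from the group means of same-numbered libraries correlated at 0.119 to 0.324 in all 6 pairs of groups of WT and AMPK-KO, and the numbers were therefore also entered as a block. The labels do not say what a number shares.

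Alternatives were DESeq2 1.42.0, its size factors, upper-quartile factors, other filters, a fold threshold, a replicate block, single days, each library or clone left out, counts summed per clone, and limma-voom 3.58.1 with a random effect of clone. Sets cut from the clusters (gamma A and B, gamma C, beta 1 to 13, beta 14 to 22) were chosen after seeing the data. The edgeR and DESeq2 fits of AMPK-KO against WT at d0, of TET2-S97E against TET2-WT and of the TET2-WT clones were tested on simulated counts. The limma-voom and replicate block fits were not. No sequence is printed.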

Additional observations from a re-analysis of the deposited data

Results flagged for a closer look

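Of 48 sets of 4 libraries examined, 3 held a value that stood apart from the others, and chance alone flags about 1 in 20 such sets. Pcdhac1 was at 0.0327 CPM and Pcdhac2 at 0.131 CPM in TET2-S97E clone 2 replicate 2, on 1 and 4 counts, and both were at 0 in the other TET2-S97E libraries. Any count among zeros stands apart in this way, and 1 count cannot be told from 0. Pcdhgc5 was at 4.67 CPM in TET2-WT clone 2 replicate 2, against 1.65, 1.85 and 1.90 CPM in the other TET2-WT libraries.

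The summed gamma level differed between AMPK-KO and WT in opposite directions on the 2 days. The log2 ratio of AMPK-KO to WT was -0.39 at d0 and 0.48 at d8, a difference of 0.865. The d0 ratio was -0.05 without WT d0 replicate 1, the highest of the 4 d0 libraries, and ranged from -0.66 to -0.05 when 1 library was left out. For the gamma C types alone it was -0.55 and 0.44, a difference of 0.987. The difference of these sums was not tested; for Pcdhgc3, which makes up most of them, edgeR's interaction test gave an adjusted p of 0.911.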

How the results depend on the processing

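No call of a member changed direction under any alternative. Without a filter on low counts the calls (higher, lower) were 5 and 1 between AMPK-KO and WT at d0, 5 and 3 at d8, 16 and 1 for d8 against d0 in WT, 11 and 0 in AMPK-KO, 1 and 0 for the interaction, 3 and 0 between the TET2-WT clones and 2 and 4 between the TET2-S97E clones. These are of 49 members tested among WT and AMPK-KO libraries and of 54 among TET2 libraries, beside 2.28 and 5.79%, 3.32 and 6.66%, 7.24 and 5.89%, 6.85 and 5.27%, 1.07 and 0.722%, 4.3 and 2.06%, and 3.23 and 3.33% of all genes in the same order. For TET2-S97E against TET2-WT, 12 of the 13 calls were kept without a filter on low counts, all but Pcdhb13. Pcdhb4, Pcdhb9 and Pcdhb21 were added, of 54 members tested, beside 2.44% of all genes called higher and 1.84% lower. With at least 10 counts in every library calls were 1 and 0 between AMPK-KO and WT at d0, and 0 and 0 at d8. For TET2-S97E against TET2-WT 1 call was then lower. With the libraries of d0 alone 0 members were called between AMPK-KO and WT, and with those of d8 alone Pcdhga4 and Pcdhb22 were, but not Pcdhgb2. DESeq2 called 1 higher between the TET2-WT clones and 2 between the TET2-S97E clones. The filter of at least 10 counts removed the lost genes from the test: Pcdhgb2 at d0, Pcdhga4 and Pcdhgb2 at d8, Pcdhb11, Pcdhb13 and Pcdhgb2 for d8 against d0 in WT, Pcdhb5, Pcdhb13 and Pcdhgb7 for TET2-S97E, and Pcdhb9 between the TET2-S97E clones. It added Pcdhb15 in WT, Pcdhb14, Pcdhb21 and Pcdhb22 in AMPK-KO, and Pcdhb11 between the TET2-S97E clones. The cause of the other changes was not tested.

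For TET2-S97E against TET2-WT, counts summed per clone gave 0 and 0, limma-voom with a random effect of clone 3 and 0, and leaving out TET2-WT clone 1, TET2-WT clone 2, TET2-S97E clone 1 or TET2-S97E clone 2 gave 2 and 1, 9 and 0, 10 and 2, and 8 and 1. Summed counts leave 2 values per genotype. With upper-quartile factors 12 of the 13 calls were kept, all but Pcdhga1.

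Replicate numbers in the labels are shared by the groups. Deviations of same-numbered libraries correlated at -0.02 to 0.51 among TET2 libraries, and nothing says that a number marks a shared culture. With a replicate block the calls were 7 and 1 for TET2-S97E against TET2-WT, without Pcdhb11, Pcdhb13, Pcdhb15, Pcdhb16 and Pcdhgb7, and 3 higher and 3 lower between the TET2-S97E clones, with Pcdhb11, Pcdhb21 and Pcdhgb2 added. Among WT and AMPK-KO libraries it changed the calls of Pcdhb13, Pcdhga1, Pcdhb21 and Pcdhb22 at d8 against d0 and of no other member.

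When single libraries were left out, the members called higher ranged from 0 to 2 between AMPK-KO and WT at d0, 0 to 4 at d8, 0 to 13 for d8 against d0 in WT, 0 to 9 in AMPK-KO, 4 to 10 for TET2-S97E against TET2-WT, 0 to 1 between the TET2-WT clones and 0 to 2 between the TET2-S97E clones. Those called lower ranged from 1 to 3 for TET2-S97E against TET2-WT and 0 to 2 between the TET2-S97E clones, and were 0 elsewhere. Of all genes, those called higher in these fits ranged from 4 to 99, 7 to 263, 0 to 978, 0 to 884, 163 to 601, 0 to 179 and 225 to 538 in the order given for the members called higher. The number of libraries, 2 per group, and low counts of alpha and 5′ beta genes limit what could be seen.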
